A study of Mus musculus with 12 samples.

Results

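The genes described here are 39 type I interferon-stimulated genes, a list of well-known targets of type I interferon chosen by symbol, and all 39 were found among the 55450 gene rows of the count table from mouse kidney cortex. Kidneys came from 4 groups of 3 mice, each 12 weeks old, and messenger RNA of the outer cortex was sequenced. The groups were Tg26 mice given INT-747, wild-type (WT) mice given INT-747, Tg26 mice given nicotinamide riboside (NR) and WT mice given NR. Tg26 mice are transgenic for a replication-defective HIV provirus, driven by the viral promoter rather than by that of a kidney cell type, and develop HIV-associated nephropathy. INT-747, or obeticholic acid, activates the bile acid receptor FXR, and NR is a precursor of NAD. Both genotypes received a drug in every group, untreated mice were not analysed here, and the sources used here give no dose, duration, strain or sex. The transcripts of the transgene were not analysed here, since 0 rows name an HIV gene, so the genotype rests on the labels.

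Type I interferons are secreted proteins that a cell makes when sensors such as RIG-I or MDA5 meet foreign or misplaced nucleic acid. They bind the receptor formed by the products of Ifnar1 and Ifnar2, whose kinases JAK1 and TYK2 activate STAT2. Complexes that hold STAT2 and IRF9 enter the nucleus, bind the interferon-stimulated response element and switch on many genes that block viral replication, tag proteins with ISG15 or restrain the signal itself. In the kidney such genes are known to be induced in tubular, endothelial and infiltrating immune cells in viral and inflammatory disease. In bulk tissue, fewer cells of a type and less RNA per cell cannot be told apart.

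Total counts per library were 22286343 to 28952177. Proximal tubule markers summed to 13310, 20200 and 12510 counts-per-million (CPM, scaled with TMM factors) in Tg26 mice 1, 2 and 3 under NR and to 18570 to 23390 CPM in the other 9 libraries, so the labelled kidney cortex was represented in all 12. The library of Tg26 mouse 3 under NR stood apart, with 5816 counts of the X-inactivation transcript Xist against 1 to 8 in the other 11, the pattern of a female mouse. It is called the female mouse or library below from this transcript alone, as no label gives the sex. It also had the highest sums of distal nephron markers (6528 CPM, against 2842 to 4880 CPM in the other 11) and of podocyte markers (593 CPM, against 300.2 to 397 CPM). Comparisons that use Tg26 mice under NR are therefore also given without it, as counts and for the genes of smallest p. The part of these differences in the gene levels was not tested. The circadian genes Dbp and Arntl differed between groups as well, and the log2 ratio of Dbp to Arntl was 2.45 to 4.12 in Tg26 mice and −2.22 to −0.77 in WT mice under INT-747. Under NR it was 3.25, 4.28 and −0.86 in Tg26 mice and 3.77, −1.27 and −2.47 in WT mice, so the genotypes overlapped.

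The 17 genes of type I ligands, Ifnb1 and the Ifna genes among them, had 0 counts in all 12 libraries. A count of 0 allows up to 3 counts, or 0.0876 to 0.135 CPM across the libraries, for counting error only. Ifng, the type II ligand, had 4 counts in all, 1 in each of 4 libraries, and Ifnl2 and Ifnl3 had 0. The receptor and its kinases were detected in every group. Ifnar1 averaged 31.5 ± 2.49 CPM in Tg26 mice and 27.8 ± 0.829 CPM in WT mice under INT-747, and 32.0 ± 4.49 CPM in Tg26 mice and 29.5 ± 1.74 CPM in WT mice under NR (SD, n = 3 each). Of Ifnar1, Ifnar2, Jak1 and Tyk2, edgeR called 0 in any contrast, and none had an unadjusted p under 0.05 in either genotype contrast.

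Levels of the interferon-stimulated genes were low to moderate. Per kilobase of exon, the highest mean levels in WT mice were those of Trim25 (15.0 CPM per kilobase), an E3 ligase for ISG15 and ubiquitin, and Lgals3bp (14.3 CPM per kilobase), which encodes a secreted galectin-binding glycoprotein. Ifi27, a gene of a small mitochondrial protein, followed at 9.32 CPM per kilobase, Bst2 at 6.19 and Ifi35 at 5.79. At the other end stood Oas2 (0.0999 CPM per kilobase), Mx1 (0.0479) and Oas3 (0.00411), antiviral genes with little transcript in WT mice. Mx1 had 2 to 27 counts and Oas3 0 to 9 counts per library. Both fell below the filter on low counts and were not tested, which left 37 of the 39 genes. In a fit without that filter they were at log2 1.80 (Mx1, adjusted p = 0.264, edgeR) and log2 3.31 (Oas3, adjusted p = 0.310, edgeR) in Tg26 over WT mice under NR. Both had their highest level in Tg26 mouse 1 under NR, at 0.788 CPM for Mx1 and 0.263 CPM for Oas3. In the annotation Mx2 is a polymorphic pseudogene.

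Promoters of such genes are known for the interferon-stimulated response element. RefSeq promoter windows (build GRCm38.p6, from 250 bases before to 50 after the annotated start) were matched for 29 of the 39 genes, in 34 windows. For 29 of the 34 windows, bases past the start also occurred near the start of an annotated GENCODE transcript of the gene. Which start these kidneys use was not tested, so some windows may miss it. The core pattern of the interferon-stimulated response element, GAAA followed by any 2 bases and a second GAAA, read on both strands, was found in windows of 13 of the 29 genes (44.8%), against 3.99% of the 27025 genes in the RefSeq table. The gamma-activated site pattern TTCNNNGAA, which is read the same on both strands, was in windows of 7 of 29 genes (24.1%), against 9.55% of all genes. The 250 bases before the start are shown for 6 genes, 5 with response element matches in different arrangements and Herc6, which had none and had lower means in Tg26 mice under both drugs. Each is written 5′ to 3′ on the strand of the gene, and capitals mark matches to the response element pattern or to its reverse complement.
Bst2 (chr8:71537473-71537722, minus strand): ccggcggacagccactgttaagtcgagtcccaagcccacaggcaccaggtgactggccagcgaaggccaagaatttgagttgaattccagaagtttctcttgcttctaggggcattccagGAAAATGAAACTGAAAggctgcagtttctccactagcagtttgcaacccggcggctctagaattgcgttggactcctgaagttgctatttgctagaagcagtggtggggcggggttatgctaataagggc
Isg15 (chr4:156200819-156201068, minus strand): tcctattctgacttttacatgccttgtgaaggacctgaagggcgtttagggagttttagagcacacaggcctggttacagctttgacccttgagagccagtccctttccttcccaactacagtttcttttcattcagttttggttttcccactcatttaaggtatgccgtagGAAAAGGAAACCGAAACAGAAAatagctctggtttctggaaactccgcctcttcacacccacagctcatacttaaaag
Ifit1 (chr19:34640639-34640888, plus strand): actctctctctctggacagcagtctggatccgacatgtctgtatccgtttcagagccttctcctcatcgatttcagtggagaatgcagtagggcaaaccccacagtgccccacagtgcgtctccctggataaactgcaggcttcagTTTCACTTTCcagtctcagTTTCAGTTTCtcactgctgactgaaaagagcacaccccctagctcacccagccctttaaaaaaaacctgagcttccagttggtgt
Ifit3 (chr19:34583279-34583528, plus strand): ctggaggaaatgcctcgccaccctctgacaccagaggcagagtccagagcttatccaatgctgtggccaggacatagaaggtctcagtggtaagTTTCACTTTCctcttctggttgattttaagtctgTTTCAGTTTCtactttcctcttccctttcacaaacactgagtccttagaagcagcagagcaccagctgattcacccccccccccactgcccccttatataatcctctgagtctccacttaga
Ifit3b (chr19:34607707-34607956, plus strand): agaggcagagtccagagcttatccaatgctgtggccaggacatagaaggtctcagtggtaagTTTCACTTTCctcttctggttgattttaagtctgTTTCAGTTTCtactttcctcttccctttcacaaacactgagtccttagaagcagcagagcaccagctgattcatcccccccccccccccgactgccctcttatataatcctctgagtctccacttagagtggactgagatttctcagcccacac
Herc6 (chr6:57580742-57580991, plus strand): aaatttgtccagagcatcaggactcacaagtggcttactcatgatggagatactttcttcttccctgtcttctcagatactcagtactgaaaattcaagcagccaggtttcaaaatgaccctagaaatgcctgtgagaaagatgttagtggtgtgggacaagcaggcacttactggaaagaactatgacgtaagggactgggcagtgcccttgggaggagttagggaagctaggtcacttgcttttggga

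In Isg15, which encodes the ubiquitin-like modifier, 3 overlapping matches began at positions −78, −72 and −66 from the start. Bst2, the gene of tetherin, which holds budding virions on the cell surface, had 2 overlapping matches, at −130 and −124, and a gamma-activated site pattern at −136 that overlaps the first of them. Ifit1 had 2 matches on the opposite strand, at −104 and −85. The windows of the neighbouring genes Ifit3 and Ifit3b share an unbroken run of 169 bases that holds both matches, at −156 and −122 in Ifit3 and at −188 and −154 in Ifit3b. Reads from these near-identical copies may be split uncertainly between them by the counting. A match describes letters only, and windows without one, such as those of Irf7, Lgals3bp and Trim25, say nothing of the factor.

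**Figure D1:**
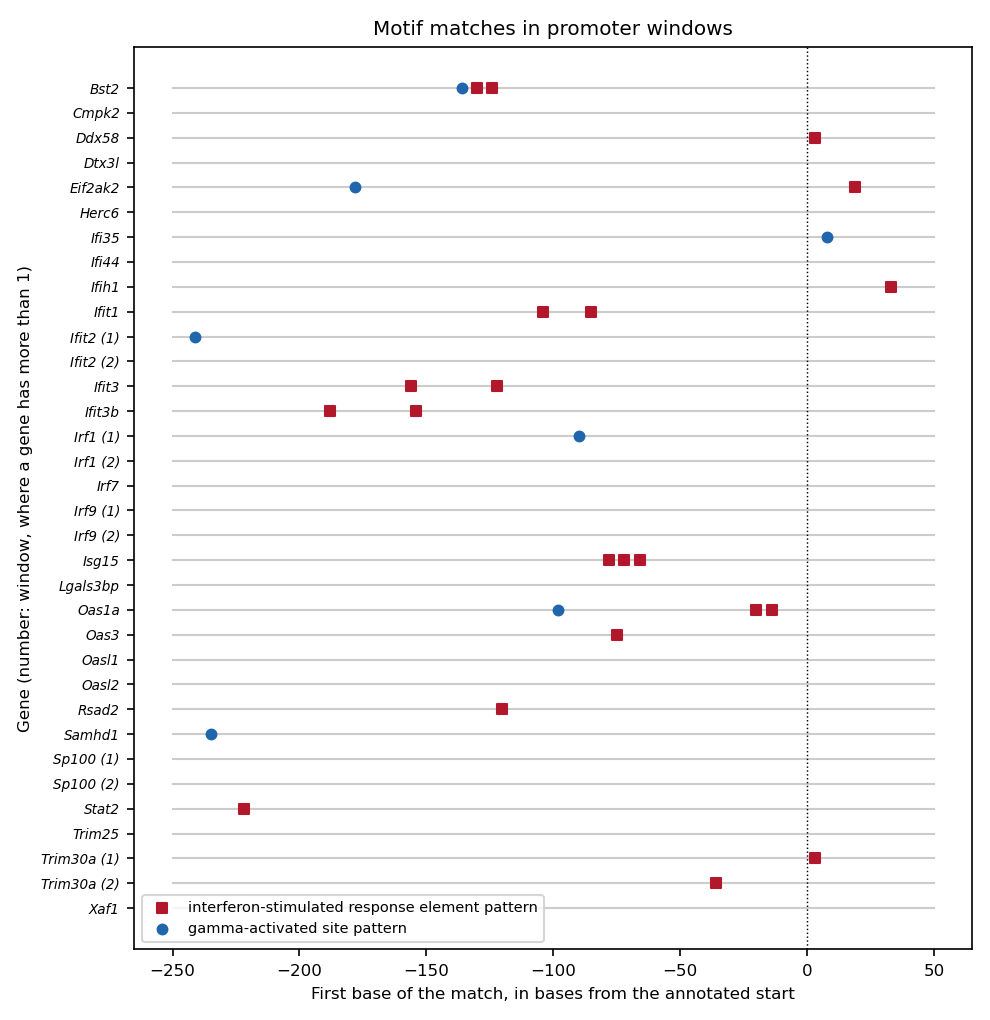
Positions of motif matches in the 34 promoter windows of 29 interferon-stimulated genes. Each grey line is a window from 250 bases before to 50 bases after the annotated RefSeq start (dotted line), squares mark the first base of response element matches and circles that of gamma-activated site matches. Of the 29 genes, 13 hold a response element match.

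Single mice carried much of the variation. For each tested gene, the library with the highest CPM of the 12 was noted. Tg26 mouse 1 under NR had the highest level for 20 of the 37 genes (54.1%), against 16.3% of all 15708 genes tested. Tg26 mouse 2 under INT-747 had the highest for 6 genes (16.2%, against 3.61% of all genes), and WT mouse 3 under INT-747 for 4. Tg26 mouse 3 under INT-747 had the lowest level for 8 genes (21.6%, against 13.0%). The median over the 37 genes of the log2 ratio of a library to the gene's mean was 0.49, 0.00 and −0.01 in Tg26 mice 1, 2 and 3 under NR, against −0.34, −0.12 and −0.36 in WT mice 1, 2 and 3 under NR. Under INT-747 it was 0.04, 0.29 and −0.40 in Tg26 mice 1, 2 and 3, against −0.21, −0.13 and 0.05 in WT mice 1, 2 and 3. Each Tg26 library under NR thus lay above every WT library under NR, whereas the Tg26 libraries under INT-747 lay on both sides of the WT libraries.

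**Figure D2:**
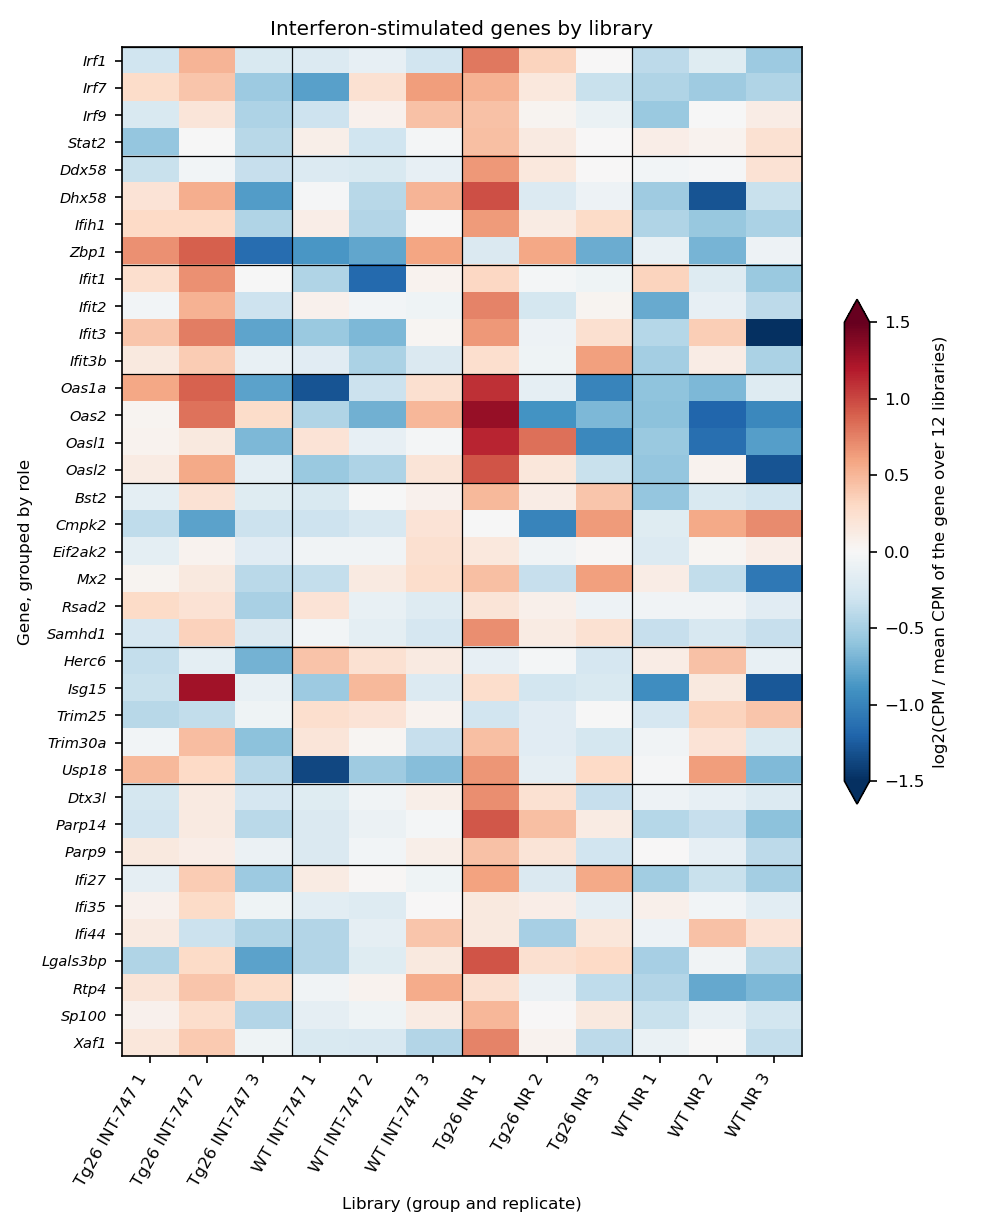
Level of each of the 37 tested interferon-stimulated genes (rows, grouped by role) in the 12 libraries (columns), as log2 of CPM over the gene's mean CPM in the 12 libraries. Tg26 mouse 1 under NR is the highest of the 12 libraries for 20 genes and Tg26 mouse 2 under INT-747 for 6.

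Macrophage markers varied between the same libraries. The summed level of 12 macrophage and myeloid markers was 668, 310.1 and 76.1 CPM in Tg26 mice 1, 2 and 3 and 90.3, 59.4 and 66.6 CPM in WT mice 1, 2 and 3 under NR. Under INT-747 it was 138.6, 381 and 114.6 CPM in Tg26 mice and 104.9, 93.5 and 125.3 CPM in WT mice. Of the 12 markers, only Fcgr1 was at 0 in any library, WT mouse 1 under INT-747. The summed level of 8 tubular injury genes was 1525, 558.1 and 1000 CPM in Tg26 mice and 236.3, 274.6 and 291.9 CPM in WT mice under NR, and 339.8, 654.3 and 284.7 CPM in Tg26 mice and 319.0, 364.2 and 266.7 CPM in WT mice under INT-747. The 2 libraries with the most genes at their highest level also had the 2 highest macrophage sums. These 2, Tg26 mouse 1 under NR and Tg26 mouse 2 under INT-747, also had the highest fibroblast marker sums, 420.1 and 207.3 CPM. Tg26 mouse 2 under NR, at 310.1 CPM of macrophage markers, was highest for 0 genes. The female Tg26 library under NR had a macrophage sum within the range of WT mice. The part of cell types or injury in the gene levels was not tested.

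**Figure D3:**
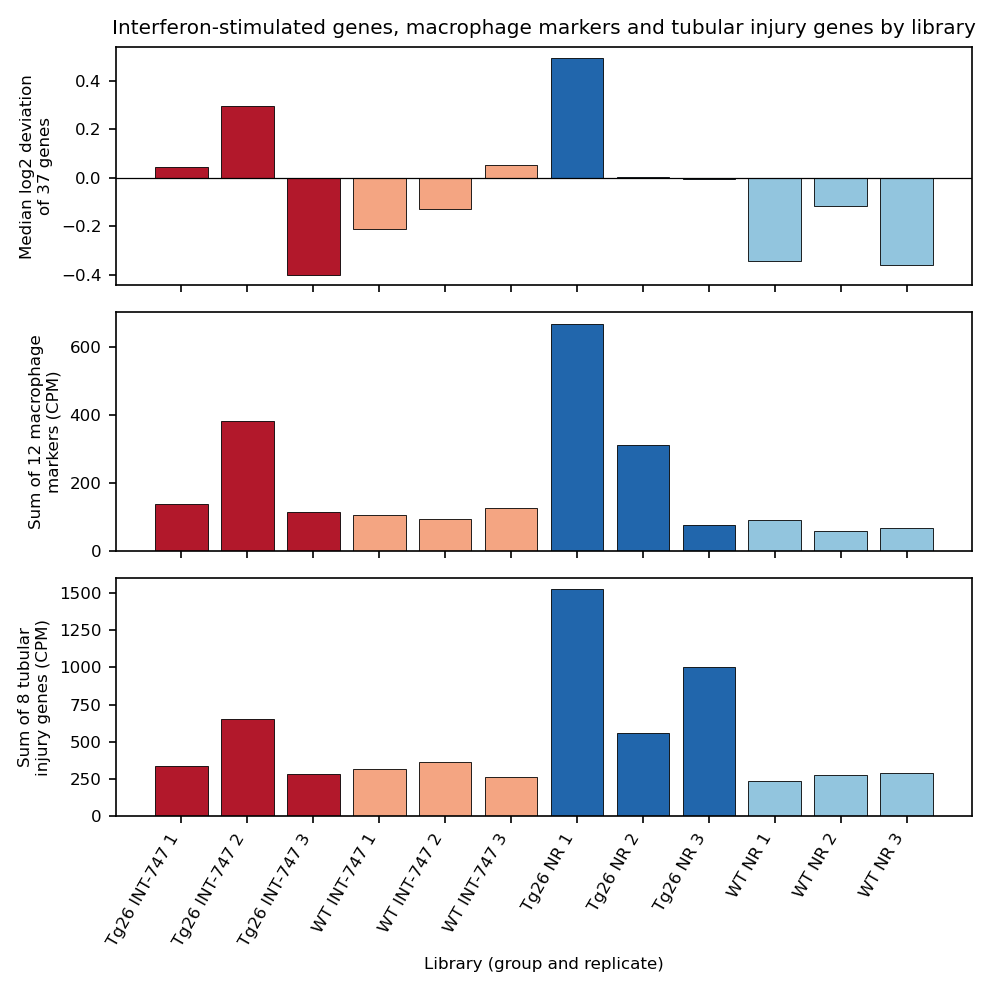
Median log2 deviation of the 37 tested interferon-stimulated genes from their means (top), summed CPM of 12 macrophage markers (middle) and summed CPM of 8 tubular injury genes (bottom) in each library. Tg26 mouse 1 under NR is highest in all 3 panels, at 0.49, 668 CPM and 1525 CPM.

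Under NR, Tg26 mice had higher mean levels than WT mice for 33 of 37 interferon-stimulated genes (89.2%, against 48.6% of all genes), with a median log2 fold change of 0.51, against −0.01 over all genes. No single gene passed the test. Differences were tested with the quasi-likelihood F test of edgeR in one fit of all 12 libraries, with Benjamini-Hochberg adjustment over the 15708 genes and a threshold of an adjusted p under 0.05, and edgeR called 0 of the 37 genes (background 0% of all genes). At an unadjusted p under 0.05 stood 11 genes, all higher in Tg26 mice, where 11.9% of all genes were higher and 8.73% lower at that level. limma-voom called 0 as well (0% of all genes). DESeq2 called 7, all higher, of a background of 6.16% of all genes called by DESeq2 in either direction. All 3 Tg26 libraries were above all 3 WT libraries for 11 genes (background 10.2% of all genes), namely Bst2, Dhx58, Ifi27, Ifih1, Irf1, Irf7, Lgals3bp, Parp14, Rtp4, Samhd1 and Sp100, and 0 genes were below in this way (9.54% of all genes). Without the female mouse 3, 38 genes passed the filter, Mx1 now among them, and 34 had higher means in Tg26 mice. An unadjusted p under 0.05 was then reached by 20 genes as higher (13% of all genes) and 2 as lower (7.45%), and DESeq2 called 9 as higher (8.45% of all genes in either direction). In the remaining libraries 19 of the 37 genes were higher without overlap (17.7% of all genes) and 0 lower (17.1%).

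The factors that act downstream of the receptor and of sensors had higher means in Tg26 mice under NR for 4 of 4 genes. Irf1, a transcription factor that is also a target of interferon gamma, was at 18.6, 13.6 and 10.8 CPM in Tg26 mice 1, 2 and 3 and at 8.21, 9.50 and 7.41 CPM in WT mice 1, 2 and 3. Its groups did not overlap, and its log2 fold change was 0.78 (SE 0.23, adjusted p = 0.140, edgeR; 0.00632 to 0.432 over the alternatives). Such ranges take in fits chosen after seeing the data, with the log2 ratio of Dbp to Arntl and by DESeq2 without the female mouse. With all libraries DESeq2 gave an adjusted p of 0.0415 for Irf1, 0.00298 for Parp14 and 0.0818 for Oasl1. Irf7, which drives later ligand production, was at 5.67, 4.40 and 3.14 CPM in Tg26 mice and 2.88, 2.72 and 2.90 CPM in WT mice, again without overlap. Irf9 and Stat2, partners in the complex that binds the response element, differed less, at log2 0.27 and 0.08.

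Sensors of nucleic acid were higher on average for 4 of 4 genes. Ifih1, the gene of the RNA sensor MDA5 (chromosome 2, 62595798 to 62646255), was at 5.29, 3.70 and 4.13 CPM in Tg26 mice and 2.49, 2.28 and 2.43 CPM in WT mice. The groups were apart, and WT mice varied little, with an SD of 0.109 CPM (log2 0.87, SE 0.24, adjusted p = 0.128, edgeR; 0.0273 to 0.396 over the alternatives). Dhx58, the gene of the RIG-I relative LGP2, was at 2.13, 0.945 and 1.03 CPM in Tg26 mice and 0.754, 0.446 and 0.862 CPM in WT mice. Ddx58, which encodes RIG-I itself, was at log2 0.24, and Zbp1, a sensor of Z-form nucleic acid, at log2 0.23.

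Of 6 tested antiviral effectors outside the OAS and IFIT families, 5 had higher means and 2, Bst2 and Samhd1, an unadjusted p under 0.05, as did 1 of 3 genes of ADP-ribosylation, Parp14. Parp14, which encodes a mono-ADP-ribosyltransferase (chromosome 16, 35832874 to 35871544), was at 15.0, 10.7 and 8.54 CPM in Tg26 mice and 5.86, 6.20 and 5.14 CPM in WT mice, without overlap (log2 0.999, SE 0.21, adjusted p = 0.125, edgeR; 4.03e-05 to 0.380 over the alternatives). Bst2 (chromosome 8, 71534255 to 71537456) was at 8.97, 6.95 and 8.57 CPM in Tg26 mice and 4.30, 5.49 and 5.21 CPM in WT mice (log2 0.71, SE 0.17, adjusted p = 0.125, edgeR; 0.0103 to 0.380 over the alternatives). It was higher in each Tg26 mouse. Samhd1, a dNTP hydrolase known to restrict HIV in myeloid cells (chromosome 2, 157097533 to 157135265), was at 36.3, 24.3 and 26.2 CPM in Tg26 mice and 17.6, 18.8 and 17.6 CPM in WT mice (log2 0.69, SE 0.18, adjusted p = 0.126, edgeR; 0.0115 to 0.385 over the alternatives). For these 3 genes every Tg26 library lay above every WT library under NR.

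The OAS family, whose enzymes make the activator of an RNA-degrading nuclease, was less even. Oasl1, a member without that enzyme activity known in mouse to restrain Irf7 translation, was at 2.16, 1.73 and 0.498 CPM in Tg26 mice and 0.666, 0.446 and 0.549 CPM in WT mice. The female Tg26 mouse lay within the WT range, and the log2 fold change was 1.40 (SE 0.47, adjusted p = 0.155, edgeR; 0.00163 to 0.461 over the alternatives). Oas2 was at 1.52, 0.329 and 0.383 CPM in Tg26 mice and 0.399, 0.268 and 0.314 CPM in WT mice, so that mouse 1 alone was far above WT mice. Oas1a and Oasl2 were at log2 0.73 and 0.87. The 4 tested genes of the IFIT family, which bind viral RNA or hold up translation, were at log2 0.19 to 0.66, with higher means in Tg26 mice and with overlap in each.

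A further pair of genes were among the 8 of smallest p. Ifi27 was at 23.7, 13.4 and 23.2 CPM in Tg26 mice and 10.9, 12.4 and 11.0 CPM in WT mice (log2 0.81, SE 0.24, adjusted p = 0.139, edgeR; 0.0311 to 0.408 over the alternatives). Lgals3bp was at 91.2, 55.9 and 58.1 CPM in Tg26 mice and 33.6, 45.7 and 35.4 CPM in WT mice (log2 0.84, SE 0.29, adjusted p = 0.160, edgeR; 0.0261 to 0.474 over the alternatives). Neither showed overlap between the groups. The 4 genes with lower means in Tg26 mice under NR were Cmpk2, a mitochondrial nucleotide kinase, at log2 −0.38, Trim25 at −0.35, Herc6, an ISG15 ligase in mouse, at −0.29 and Ifi44 at −0.23. Eif2ak2, which encodes the RNA-activated kinase PKR, and Rsad2, the gene of viperin, were at log2 0.07 and 0.16. The remaining genes had higher means in Tg26 mice, from Trim30a, an immune ubiquitin ligase, at log2 0.06 over Usp18 at 0.25, Parp9 at 0.31, Xaf1 at 0.36, Dtx3l at 0.39, Sp100 at 0.47 and Isg15 at 0.51 to Rtp4 at 0.57 and Mx2 at 0.67.

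**Figure D4:**
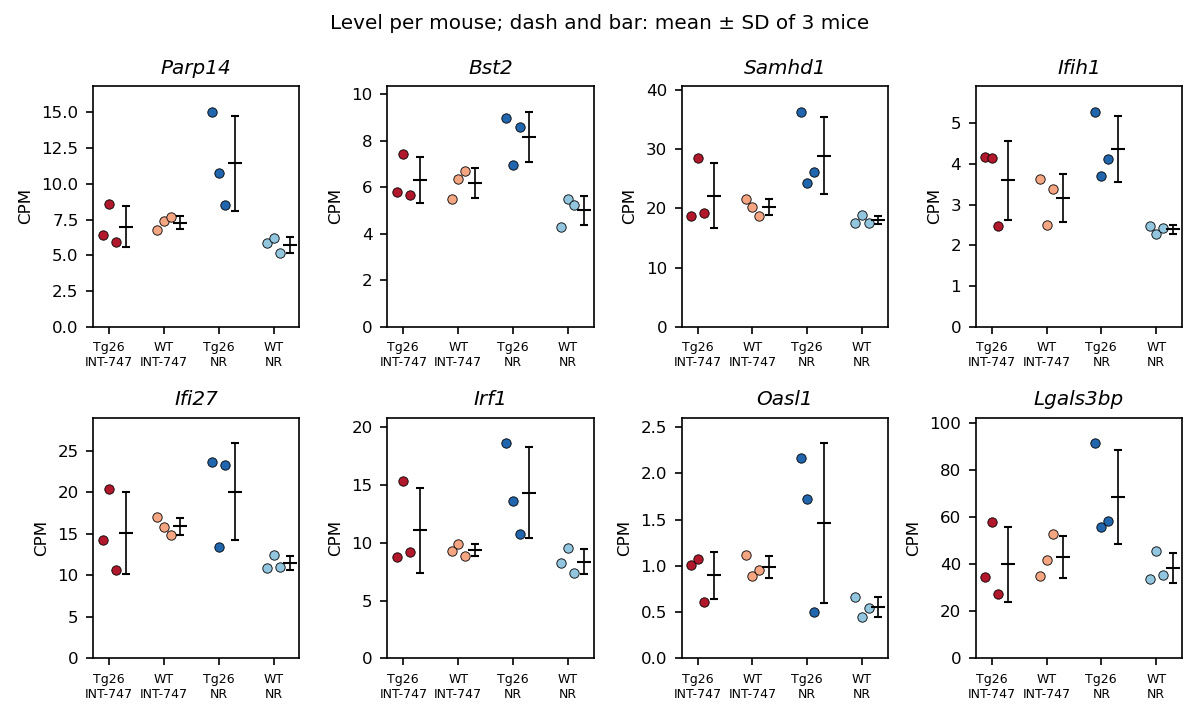
Level in CPM of the 8 interferon-stimulated genes of smallest p in Tg26 against WT mice under NR, per mouse in the 4 groups, with the mean and SD of 3 mice. Except for Oasl1, all 3 Tg26 mice under NR lie above the 3 WT mice under NR in each panel.

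The size of the difference under NR varied with single mice. In Tg26 mouse 1, 31 of 37 genes were above all 3 WT libraries (83.8%, against 31.9% of all genes), and in mouse 2, 20 genes were (54.1%, against 24.7%). In mouse 3, the female library, 14 genes were (37.8%), a share near that of all genes (33.3%). Without Tg26 mouse 1 the median log2 fold change was 0.28, with 0 genes called (0.00629% of all genes). Without the female mouse 3 it was 0.61, and 2 genes were called (2.08% of all genes), Parp14 (log2 1.19, adjusted p = 0.0447, edgeR) and Oasl1 (log2 1.83, adjusted p = 0.0462, edgeR). Irf1 was then at log2 0.97, Lgals3bp at 0.97, Ifih1 at 0.93, Samhd1 at 0.77, Ifi27 at 0.72 and Bst2 at 0.69. Without Tg26 mouse 2 the median was 0.60 and 4 genes were called (4.9% of all genes), Ifi27 (adjusted p = 0.0311, edgeR), Bst2 (0.0359), Parp14 (0.0385) and Samhd1 (0.0422).

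Under INT-747 the median difference between the genotypes in these genes was near 0, and the Tg26 mice differed among themselves. Tg26 mice had higher means than WT mice for 22 of 37 genes (59.5%, against 51.7% of all genes), and the median log2 fold change was 0.03, against 0.01 over all genes. edgeR called 0 of 37 (background 0.267%), and 1 gene was higher and 2 were lower at an unadjusted p under 0.05 (7.47% and 7.82% of all genes). DESeq2 called 1, Herc6, as lower (3.34% of all genes in either direction), and limma-voom called 0 (0.223%). Without overlap between the groups, Ifit3b, Usp18 and Xaf1 were higher (12.5% of all genes) and Cmpk2, Herc6 and Trim25 lower (13.5%). The median was 0.22 without Tg26 mouse 3 under INT-747. It was −0.16 without Tg26 mouse 2, the mouse with 26 of 37 genes above all WT libraries under INT-747. Mice 1 and 3 had 11 and 3 such genes, with 30.5% to 33.1% of all genes in the 3 mice.

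**Figure D5:**
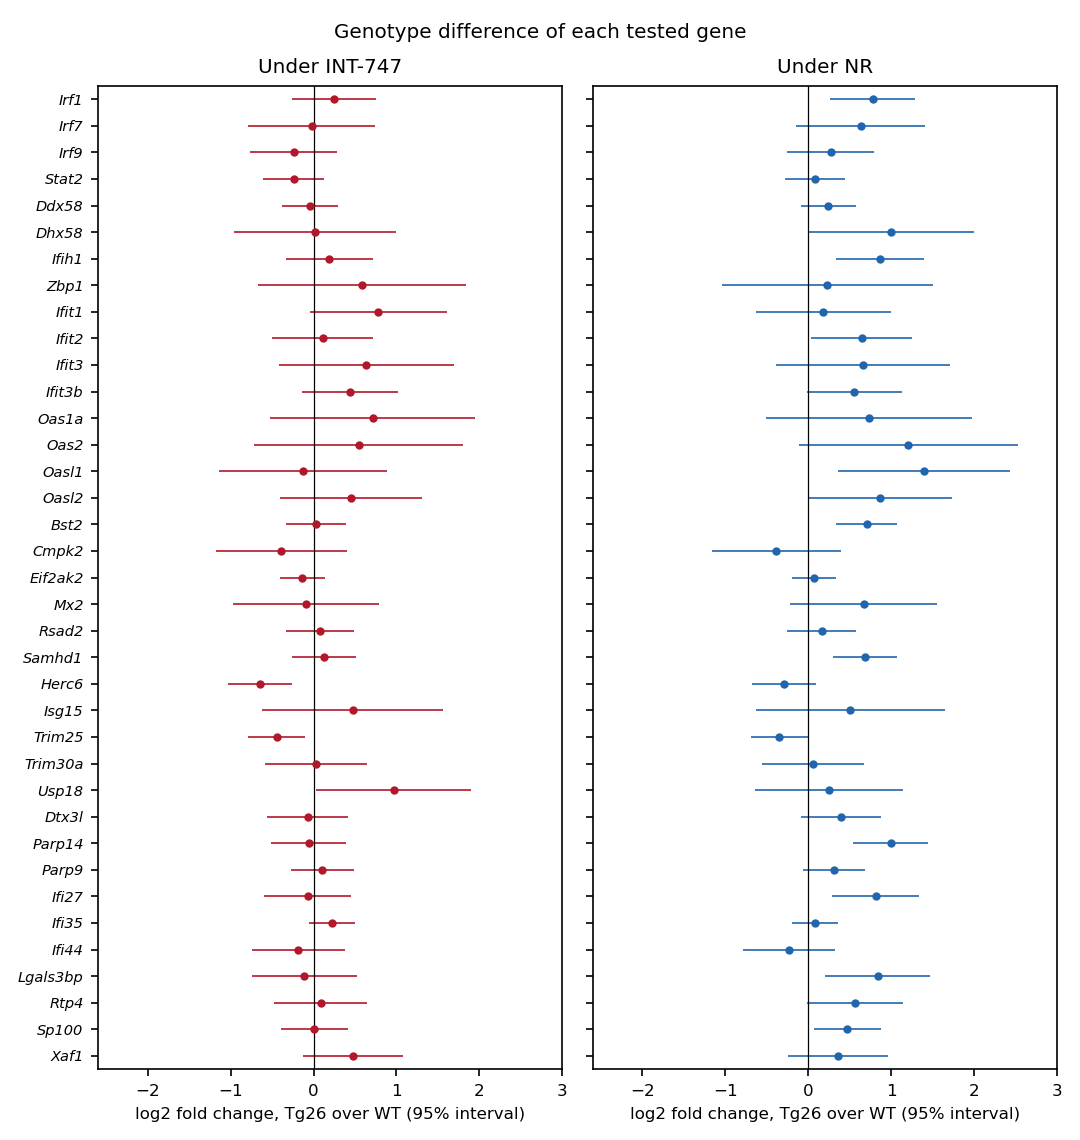
Log2 fold change of Tg26 over WT mice, with its 95% interval, for the 37 tested interferon-stimulated genes (rows, by role) under INT-747 (left) and under NR (right). Medians are 0.03 under INT-747 and 0.51 under NR.

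Herc6, Trim25 and Usp18 had the smallest p under INT-747, with differences in both directions. They are in the list of ISG15 and ubiquitin enzymes, whose other genes, Isg15 and Trim30a, were at log2 0.47 and 0.03. Herc6 was at 6.40, 7.43 and 5.01 CPM in Tg26 mice 1, 2 and 3 and 11.0, 9.56 and 9.01 CPM in WT mice 1, 2 and 3, without overlap (log2 −0.65, SE 0.18, adjusted p = 0.160, edgeR; 0.0346 to 0.559 over the alternatives). Trim25 was at 57.3, 59.1 and 72.6 CPM in Tg26 mice and 90.9, 87.8 and 78.9 CPM in WT mice (log2 −0.45, SE 0.16, adjusted p = 0.236, edgeR; 0.0412 to 0.954 over the alternatives). In a fit that adds the log2 ratio of Dbp to Arntl, a choice made with the data in view, Trim25 stood at log2 −0.09 and Herc6 at −0.75. Usp18, which removes ISG15 and blocks the receptor, was at 1.14, 0.998 and 0.610 CPM in Tg26 mice and 0.314, 0.558 and 0.520 CPM in WT mice (log2 0.97, SE 0.43, adjusted p = 0.312, edgeR; 0.208 to 0.813 over the alternatives). Isg15 itself was at 0.674, 2.04 and 0.784 CPM in Tg26 mice and 0.583, 1.19 and 0.736 CPM in WT mice, with overlap and with mouse 2 far above the other Tg26 mice.

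The other genes among the 8 of smallest p under INT-747 had adjusted p-values of 0.351 to 0.510 by edgeR. Ifit1 was at log2 0.78 (SE 0.38), Xaf1, an apoptosis regulator, at 0.48 (SE 0.28), Ifit3b at 0.44 (SE 0.26), Ifi35 at 0.22 (SE 0.13) and Stat2 at −0.24 (SE 0.17). All 4 IFIT genes had higher means in Tg26 mice, as under NR. Ifit3 was at 4.93, 6.27 and 2.13 CPM in Tg26 mice and 2.51, 2.31 and 3.77 CPM in WT mice, so the groups overlapped. The 8 genes of smallest p under NR lay between log2 −0.13 and 0.25 here, with Irf1 at 0.25, Ifih1 at 0.19, Samhd1 at 0.13, Bst2 at 0.03, Parp14 at −0.06, Ifi27 at −0.07, Lgals3bp at −0.11 and Oasl1 at −0.13. These 8 were picked by their p under NR in the same data, so smaller differences here can follow from that choice.

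The difference between the 2 genotype effects was tested as an interaction. It contains the NR difference given above, so the 2 comparisons are not independent. The effect under INT-747 minus that under NR was below 0 for 31 of 37 genes (52.3% of all genes), with a median of −0.35 against −0.03 over all genes. edgeR called 0 (background 0%), DESeq2 0 (1.57%) and limma-voom 0 (0%). At an unadjusted p under 0.05, 6 genes were lower and 0 higher (6.82% and 8.63% of all genes). Parp14 had the smallest p, at −1.06 (SE 0.29, adjusted p = 0.242, edgeR; 0.0104 to 0.497 over the alternatives), followed by Bst2 at −0.68 (SE 0.24), Ifi27 at −0.89 (SE 0.34), Oasl1 at −1.53 (SE 0.66), Lgals3bp at −0.95 (SE 0.41), Samhd1 at −0.56 (SE 0.25), Ifih1 at −0.68 (SE 0.34) and Sp100 at −0.47 (SE 0.26), with adjusted p-values of 0.274 to 0.396 by edgeR. Without Tg26 mouse 3 under NR, 8 genes were lower and 0 higher at an unadjusted p under 0.05 (7.49% and 6.5% of all genes), edgeR called 0 (0%) and DESeq2 called 1, Parp14, at −1.25 (0.979% of all genes). The median was −0.16 without Tg26 mouse 1 under NR, −0.44 without Tg26 mouse 3 under NR and −0.57 without Tg26 mouse 2 under INT-747. A difference between the treatments in the genotype effect was thus not established for any of the 37 genes.

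Averaged over both treatments, Tg26 mice had higher means for 31 of 37 genes (83.8%, against 50.7% of all genes), with a median of 0.37. edgeR called 0 (background 0.446%), with 7 genes higher and 2 lower at an unadjusted p under 0.05 (11.1% and 8.92% of all genes). limma-voom called 0 (background 0.197%) and DESeq2 called 3 (7.61% of all genes), Samhd1 as higher and Herc6 and Trim25 as lower. The smallest p-values were those of Herc6 (log2 −0.47, SE 0.12, adjusted p = 0.0961, edgeR; 0.0182 to 0.244 over the alternatives) and Trim25 (log2 −0.40, SE 0.11, adjusted p = 0.102, edgeR; 0.0109 to 0.652 over the alternatives). Samhd1 was at 0.41, Parp14 at 0.47, Ifih1 at 0.53, Bst2 at 0.37, Irf1 at 0.51 and Ifit3b at 0.50, with adjusted p-values of 0.113 to 0.170 by edgeR. Without the female mouse 3, edgeR called 3 genes (7.63% of all genes), Parp14 (adjusted p = 0.0320), Irf1 (0.0436) and Oasl1 (0.0472). The unadjusted p was then under 0.05 for 13 genes as higher (14.2% of all genes) and 3 as lower (10.8%), and DESeq2 called 8 (12.7%), 6 as higher and 2 as lower.

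The drugs were compared within each genotype, which shares mice with the comparisons above. In Tg26 mice, INT-747 went with lower mean levels than NR for 30 of 37 genes and higher ones for 7 (18.9% higher, against 46.1% of all genes), with a median of −0.15 against −0.04 over all genes. edgeR called 0 of 37 (background 4.38%), 6 genes were lower at an unadjusted p under 0.05 (12.9% of all genes) and 0 higher (14.3%). limma-voom called 0 (background 4.77%) and DESeq2 4, Ddx58, Parp14, Stat2 and Lgals3bp, all lower (13.8% of all genes in either direction). Ddx58 and Stat2 were lower without overlap between the groups (12.5% of all genes), and 0 genes were higher in this way (15.4%). Leaving out Tg26 mouse 2 under INT-747 gave a median of −0.40 and 4 called genes (6.01% of all genes), among them Lgals3bp, Stat2 and Parp14, and leaving out Tg26 mouse 1 under NR gave −0.07 and 0 called (0.296% of all genes). Without the female mouse the median was −0.27 and edgeR called 0 (0.393%), while 9 genes were lower (13.2% of all genes) and 0 higher (10.9%) at an unadjusted p under 0.05. DESeq2 then called 5 (7.91%), all lower, and 7 genes were lower (18.4%) and 0 higher (20.9%) without overlap between the groups.

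Ddx58 was at 17.6, 21.4 and 17.4 CPM in Tg26 mice under INT-747 and 34.6, 24.6 and 22.2 CPM in Tg26 mice under NR (log2 −0.53, SE 0.15, adjusted p = 0.0658, edgeR; 0.00525 to 0.229 over the alternatives). Stat2 was at 9.64, 14.4 and 10.8 CPM under INT-747 and 19.7, 15.8 and 14.4 CPM under NR (log2 −0.52, SE 0.17, adjusted p = 0.0805, edgeR; 0.0281 to 0.258 over the alternatives). For both, the highest INT-747 value, in mouse 2, came close to the lowest NR value. Parp14 was at 6.44, 8.62 and 5.97 CPM under INT-747 and 15.0, 10.7 and 8.54 CPM under NR (log2 −0.71, SE 0.21, adjusted p = 0.0662, edgeR; 0.00309 to 0.235 over the alternatives). Its groups met, since mouse 2 under INT-747 was above mouse 3 under NR. Lgals3bp was at log2 −0.78 (SE 0.29), Bst2 at −0.37 (SE 0.17), Samhd1 at −0.39 (SE 0.18), Ifi27 at −0.41 (SE 0.24) and Dtx3l, a ubiquitin ligase that pairs with Parp9, at −0.37 (SE 0.22), with adjusted p-values of 0.120 to 0.290 by edgeR. Lgals3bp was at −0.91, Parp14 at −0.90, Ddx58 at −0.68 and Stat2 at −0.64 without the female mouse.

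In WT mice the means leaned the other way. INT-747 went with higher means than NR for 25 of 37 genes (67.6%, against 48.7% of all genes), and the median was 0.14. edgeR called 0 (background 0.0127%), DESeq2 0 (0.388%) and limma-voom 0 (0.0127%). At an unadjusted p under 0.05, 1 gene, Rtp4, was higher (2.66% of all genes) and 0 were lower (2.35%). Rtp4, a chaperone of cell surface receptors, was at 1.39, 1.49 and 2.12 CPM in WT mice under INT-747 and 1.07, 0.848 and 0.902 CPM in WT mice under NR, without overlap (log2 0.83, SE 0.27, adjusted p = 0.802, edgeR; 0.427 to 1.0 over the alternatives). Masp1 lies opposite Rtp4 over 525 bases, and whether strand was used in counting is not stated, so their reads may not be separable. Ifi27, Ifih1, Ifit2, Oasl1 and Parp14 were also higher without overlap between the groups (6.65% of all genes), and Ddx58 was lower (6.21%). Usp18 was at log2 −0.86, Oasl1 at 0.83, Irf7 at 0.61, Ifi27 at 0.47, Ifih1 at 0.40, Parp14 at 0.35 and Bst2 at 0.31, with an adjusted p of 0.99989 for each by edgeR. The intervals were wide: that of Irf7 ran from −0.17 to 1.39.

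Other genes of the pathway were counted by list. Of 33 further interferon-stimulated genes, 32 were tested, and edgeR called 0 in all 6 contrasts (0% to 4.38% of all genes). Tg26 mice had higher means for 26 of 32 under NR (81.2%, against 48.6% of all genes), with a median log2 of 0.41. Of these, 11 were higher at an unadjusted p under 0.05 (11.9% of all genes). Under INT-747, 20 of 32 had higher means in Tg26 mice (62.5%, against 51.7% of all genes), with a median of 0.12. Without the female mouse, 28 of 32 were higher under NR (87.5%, against 49.4% of all genes), with a median of 0.51. In that fit 2 were called (2.08% of all genes), Ifitm3 (adjusted p = 0.0497, edgeR) and Nlrc5 (adjusted p = 0.0478, edgeR). Nlrc5 is a regulator of MHC class I genes, and both were named after their values were seen. Ifitm1, which blocks viral entry, was at 2.78, 1.73 and 2.45 CPM in Tg26 mice and 0.799, 0.803 and 0.666 CPM in WT mice under NR, without overlap (log2 1.62, SE 0.34). Its relatives Ifitm3 and Ifitm2 were at log2 0.79 and 0.54, and the exonuclease gene Isg20 at 2.01. Ifitm1 was at log2 1.60, Ifitm2 at 0.45 and Isg20 at 1.75 without the female mouse, and none of the 3 was called. Of 7 tested genes that restrain signalling or remove nucleic acid, Socs3, a feedback inhibitor of JAK kinases, was at 12.9, 4.69 and 1.42 CPM in Tg26 mice and 1.51, 1.25 and 0.588 CPM in WT mice under NR, where the female mouse was within the WT range (log2 2.52, SE 0.76). Without that mouse it was at log2 3.01 and called (adjusted p = 0.0462, edgeR, background 2.08% of all genes called).

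Of 14 genes of sensing and induction, 9 had higher means in Tg26 mice under INT-747 and 9 under NR, with medians of 0.19 and 0.28, and 1 was called in any contrast. Mavs, the mitochondrial adaptor through which RIG-I and MDA5 signal, was at 58.7, 61.5 and 53.3 CPM in Tg26 mice under INT-747. Tg26 mice under NR were at 77.4, 89.1 and 86.3 CPM (log2 −0.54, SE 0.10, adjusted p = 0.0287, edgeR, background 4.38% of all genes called). Without untreated mice, a lower level under INT-747 and a higher level under NR cannot be told apart. With the female mouse left out Mavs was at log2 −0.55 and no longer called (adjusted p = 0.0613, edgeR). In WT mice it was at 77.3, 76.4 and 73.1 CPM under INT-747 and 84.8, 102.2 and 108.1 CPM under NR (log2 −0.38, SE 0.10, adjusted p = 0.564, edgeR). Irf8, a transcription factor of myeloid cells, was at log2 −1.09 (SE 0.29) in Tg26 mice under INT-747 relative to NR, and at −1.15 (SE 0.33) without the female mouse. Tmem173, the gene of the DNA-sensing adaptor STING, was called in Tg26 against WT mice under NR with that mouse left out (log2 1.99, adjusted p = 0.0477, edgeR). In that fit 2.08% of all genes were called, and Tmem173 was named after its values were seen. With all libraries, edgeR called 0 of the 14 genes in this contrast (0% of all genes).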

How the data were processed

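Messenger RNA of kidney outer cortex from 12 mice was sequenced from stranded libraries, per the labels' protocols. The submitters' processing notes name bcl2fastq 2.17, cutadapt 1.18, STAR 2.7.0f, RSEM 1.3.1 and build mm10, with no settings or order. The deposited values are expected counts per gene, as estimated by the authors with RSEM and not scaled to library size. 0 of the values were not whole, and 0 columns belonged to other samples. All 55450 gene IDs and symbols matched release M21 of the mouse GENCODE annotation, the source of coordinates, while the release used by the authors is not given in the sources used here.

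Genes passing filterByExpr (15708) were scaled by TMM and fitted with edgeR 4.0.16 (R 4.3.3, robust quasi-likelihood, a mean per group, 8 residual degrees of freedom, common biological coefficient of variation 0.214), with Benjamini-Hochberg adjustment over all genes and SE from the same fit. DESeq2 1.42.0 and limma-voom (limma 3.58.1) were alternatives, besides other scalings, filters, fits and each library left out. A clock covariate, the log2 ratio of Dbp to Arntl, and DESeq2 without Tg26 mouse 3 under NR were added after seeing the data. Both enter the ranges of adjusted p over the alternatives in the contrasts they cover. No label says how the mice were bred or housed. The p-values set differences between groups against a spread estimated from these mice, with information shared across genes. At adjusted p under 0.05 a gene is called. In each of 6 contrasts the called genes, or else the 8 of smallest p, were named with adjusted p, singly or as a range, and fold changes of other genes are given to account for the list. The members and the pathway lists were chosen with earlier results of these data known. A further gene of the pathway lists is not reported here. Of the members, 14 overlap another annotated gene with counts, 11 of them on the opposite strand, and the strand setting of the counting is not stated. Among these are Dtx3l with Parp9 (682 bases), Irf9 with Rnf31 on the same strand (123 bases) and Irf7 with Phrf1 (45 bases). Ifit3 and Ifit3b and other paralogues may share reads, which was not tested.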

Additional observations from a re-analysis of the deposited data

How the results depend on the processing

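Called members numbered 0 by edgeR in all 6 contrasts (0% to 4.38% of all genes). They stayed at 0 with RLE scaling, without a filter, with at least 1 CPM in 3 libraries, with limma-voom and edgeR without robust estimation. DESeq2 called 1 member in the genotype contrast under INT-747 (3.34% of all genes) and 7 in that under NR (6.16%). It called 3 in the averaged contrast (7.61%) and 4 for INT-747 against NR within Tg26 mice (13.8%). DESeq2 without Tg26 mouse 3 under NR, chosen after seeing the data, called 9 under NR (8.45% of all genes) and 8 averaged (12.7%). It called 5 for INT-747 against NR within Tg26 mice (7.91%) and 1 in the interaction (0.979%). A fit of only the 2 groups compared called 1 under INT-747, Trim25 (adjusted p = 0.0412, edgeR). Leaving out each library gave 0 to 4 called members under NR, 0 to 3 averaged and 0 to 4 for INT-747 against NR within Tg26 mice. The fits with the most called 4.9%, 7.63% and 6.01% of all genes. Without WT mouse 1 under NR 1 member (Trim25) was called in the averaged contrast. Without Tg26 mouse 2 under NR 1 (Ddx58) was called in the treatment contrast of Tg26 mice. The shares of all genes called in these last fits, and in that of only the 2 groups, are not given here. With each library left out in turn, the median log2 fold change for the genotype was −0.16 to 0.22 under INT-747. It was 0.28 to 0.63 under NR and 0.23 to 0.46 averaged. For the drugs it was 0.05 to 0.27 in WT mice and −0.40 to −0.067 in Tg26 mice, and for the interaction −0.57 to −0.16. The labels do not say that replicate numbers pair the mice. Same-numbered mice of different groups correlated at −0.22 to 0.26, and 4 of 12 pairs were over 0.1. With so few mice per group these correlations cannot show whether the mice were paired. With a replicate block 0 members were called in every contrast, and 11, 0 and 53 of all genes under INT-747, under NR and averaged, against 42, 0 and 70 without the block. With the clock covariate, chosen after seeing the data, 0 members were called and the medians were 0.05 under INT-747 and 0.48 under NR, and the averaged genotype effect on Trim25 was −0.11, against −0.40 without it. The cause of these changes was not tested. Mx1 and Oas3 were below the filter on low counts, and in the fit without it neither was called, with an adjusted p of at least 0.264 by edgeR in each contrast.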
